A study of Homo sapiens with 18 samples.

Results

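The androgen response of LNCaP, a human prostate cancer line that needs androgen for growth, was read from 6 of the 18 arrays of the series: the 3 of cells given 5α-dihydrotestosterone (DHT) and the 3 of cells given DMSO, the vehicle. They were chosen by their sample titles. All cells were kept in medium with charcoal-stripped serum, from which steroids are largely removed, and treated for 24 h. The labels give DHT at 10 nM, whereas a legend of the study gives a different dose. LNCaP is 1 line, so the values describe this line and not the prostate. The other 12 arrays (flutamide or MJC13, each with and without DHT, 3 arrays per group) entered the filter on dim probes, the estimate of the spread and a check of the array order. Each array carries a number from 1 to 3 in its title. Nothing in the labels says what a number stands for, and for 11 of the 18 arrays the number in the description is not that in the title. Whether the replicates were separate cultures is likewise not given, so the p-values measure the spread between these arrays, which may be technical.

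DHT is a steroid hormone whose signal reaches the nucleus and acts at androgen response elements, pairs of short half-sites near or far from the genes they control. In luminal prostate cells these genes encode secreted proteases, transporters and enzymes of lipid and steroid metabolism. In LNCaP cells deprived of steroid, androgen also brings resting cells into the division cycle. There the E2F factors switch on genes of DNA synthesis in late G1, and a later wave of mitotic genes carries an element known as CHR, bound by the DREAM and MuvB complexes.

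Start-site sequences of 6 genes that were higher with DHT show these 3 kinds of element. They are printed because androgen-induced, replication and mitotic genes, which were among those that rose, are known for these elements. Each is the 250-base stretch before a gene's start, taken from RefSeq on GRCh38.p14, written 5′ to 3′ on the gene's own strand. In the first pair, the kallikrein genes KLK3 and KLK2, capitals mark a match to GAACANNNNGTNCT, a form of the androgen response element.
KLK3, chr19:50854665-50854914 (plus strand): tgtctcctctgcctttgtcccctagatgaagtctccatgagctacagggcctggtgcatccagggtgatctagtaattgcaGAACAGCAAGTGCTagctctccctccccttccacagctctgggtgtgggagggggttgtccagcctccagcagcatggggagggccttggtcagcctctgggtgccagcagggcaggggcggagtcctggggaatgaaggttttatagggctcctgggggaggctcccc
KLK2, chr19:50873189-50873438 (plus strand): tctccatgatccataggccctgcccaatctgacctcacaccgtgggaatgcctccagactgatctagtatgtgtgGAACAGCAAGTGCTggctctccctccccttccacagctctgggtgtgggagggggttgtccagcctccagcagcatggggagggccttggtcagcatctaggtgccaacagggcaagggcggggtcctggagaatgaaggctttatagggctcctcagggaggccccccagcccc
The matched letters are identical in both genes, and the longest run of bases the stretches share is 80 bases long. In the next pair, the helicase subunit gene MCM6 and the polymerase alpha subunit gene POLA2, capitals mark the E2F motif TTTNGCGC on either strand. In MCM6 matches on opposite strands overlap, so that 4 matches make up 2 runs of capitals.
MCM6, chr2:135876444-135876693 (minus strand): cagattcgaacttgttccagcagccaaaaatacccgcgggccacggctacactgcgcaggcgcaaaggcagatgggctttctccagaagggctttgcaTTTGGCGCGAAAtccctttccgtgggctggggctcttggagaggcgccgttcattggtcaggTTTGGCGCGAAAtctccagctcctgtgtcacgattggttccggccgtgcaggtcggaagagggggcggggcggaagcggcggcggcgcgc
POLA2, chr11:65261712-65261961 (plus strand): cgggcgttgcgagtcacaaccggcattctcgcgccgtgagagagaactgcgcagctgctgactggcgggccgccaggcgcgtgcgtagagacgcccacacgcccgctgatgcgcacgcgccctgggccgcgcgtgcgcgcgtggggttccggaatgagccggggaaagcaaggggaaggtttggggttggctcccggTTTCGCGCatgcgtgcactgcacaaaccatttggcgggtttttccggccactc
In the last pair, the mitotic kinesin gene KIF23 and the spindle protein gene HMMR, capitals mark the CHR motif TTTGAA on either strand, which HMMR holds 2 times in a row.
KIF23, chr15:69414099-69414348 (plus strand): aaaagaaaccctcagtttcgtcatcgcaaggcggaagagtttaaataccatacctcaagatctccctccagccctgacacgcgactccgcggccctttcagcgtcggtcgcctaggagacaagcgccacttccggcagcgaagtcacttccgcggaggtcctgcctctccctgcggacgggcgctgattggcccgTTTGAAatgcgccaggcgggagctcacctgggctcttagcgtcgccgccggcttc
HMMR, chr5:163460382-163460631 (plus strand): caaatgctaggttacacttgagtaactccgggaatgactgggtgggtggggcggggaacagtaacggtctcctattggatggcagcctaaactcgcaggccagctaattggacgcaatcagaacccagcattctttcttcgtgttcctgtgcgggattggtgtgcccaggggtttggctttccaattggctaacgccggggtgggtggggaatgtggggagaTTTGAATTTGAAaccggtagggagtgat

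Over windows of 300 bases around the start (the bases above and 50 after it), the E2F motif stood in 2.82% of the 11373 tested genes that have a window and in 1.79% of all 35116 windows. It stood in 8 of 20 genes of origin licensing (40%) and 7 of 24 of the replication fork (29.2%), but in 2 of 37 mitotic genes (5.41%). The CHR motif showed the opposite pattern, with 26 of 37 mitotic genes (70.3%), 1 of 20 of origin licensing and 0 of 24 of the replication fork, beside 10.6% of tested genes and 15.2% of all windows. Of 19 DNA repair genes, 1 held the E2F motif and 1 the CHR motif (5.26% each). In the respiratory chain, 2 of 32 held E2F (6.25%) and 1 CHR (3.12%). Among 217 genes called higher with the title number in the fit, 24 held E2F (11.1%) and 54 CHR (24.9%). Among 67 called lower, 0 held E2F and 10 CHR (14.9%). The androgen response element in the form above was in 17 tested genes (0.149%) and 87 windows (0.248%). Of 34 androgen-induced genes with a window, KLK2 and KLK3 held it. All motifs were searched on both strands. The letters of the androgen element were chosen with the kallikrein sequences in view, the gene lists hold genes known for these elements, and a match is a description of letters, not of binding.

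DHT and DMSO were compared at 28334 probes, for 14433 named genes, in 2 ways. Without regard to the title number, limma called 50 probes higher with DHT (0.176% of those tested) and 4 lower (0.0141%) at a Benjamini-Hochberg adjusted p under 0.05. They stand for 39 and 2 named genes. With the title number as a further term of the fit, here called the block, it called 364 higher (1.28%) and 105 lower (0.371%), for 270 and 84 named genes, and these included all 54 probes called without it. At an unadjusted p under 0.05 there were 2345 probes without the block and 3225 with it. Rises outnumbered falls and were larger. With the block the median was log2 1.04 for the 364 higher probes and -0.87 for the 105 lower ones, and 212 of the former and 30 of the latter reached 2-fold. The 3 DHT arrays were all above the 3 DMSO arrays at 335 of the 364 probes, where 7.94% of all probes tested show this, and all below at 85 of the 105, where 6.16% do. The median difference of all probes was log2 -0.0065. Probes of 1 gene disagreed in sign more seldom among rises than among falls: all pointed the same way in 106 of 115 genes called higher with the block, but in 27 of 39 called lower. Where a gene has several probes, the value below is that of the called probe with the largest difference unless another is named.

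Rises called without the block included secreted proteins, an ion channel and enzymes. Of the 54 probes called higher or lower in this fit, 23 (without DMSO array 3) to 47 (without DMSO array 1) lost the call when 1 array was left out. The largest rise of all was in a probe with no gene symbol (ILMN_1663787, 9.08-fold). ORM1, which encodes the acute-phase plasma protein orosomucoid, read 6.12, 6.05 and 6.19 on DMSO arrays 1 to 3 and 9.48, 8.43 and 9.29 on the DHT arrays. Its neighbour ORM2, a near-identical copy, read 6.18, 6.02 and 5.91 against 8.64, 8.15 and 8.90. Both genes went from near the bottom of the array's range, which runs from 5.81 to 14.82, to well inside it, and their probes may not tell the copies apart. TRPM8, the cold-sensing cation channel, rose by log2 2.11 and 2.08 in its 2 probes. HPGD, which inactivates prostaglandins, read 6.91, 6.56 and 6.09 against 9.21, 8.16 and 9.01. Other enzymes of the set were PGC, a pepsinogen (log2 1.88), and ST6GALNAC1, a Golgi sialyltransferase (log2 1.91). ST6GALNAC1 had tight groups, at 6.20, 6.16 and 6.38 against 8.14, 8.14 and 8.19. None of these groups overlapped. The DMSO means of ORM1, ORM2, PGC, ST6GALNAC1 and the TRPM8 probe at log2 2.11 lie below 6.31, the value of the filter on dim probes. So do those of TRIM49D1, TRIM49D2, ADH1C and the called probe of HOPX, described below. These probes passed the filter only through other groups, where they read higher, so a high reading outside DMSO was a condition of testing them.

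**Figure D1:**
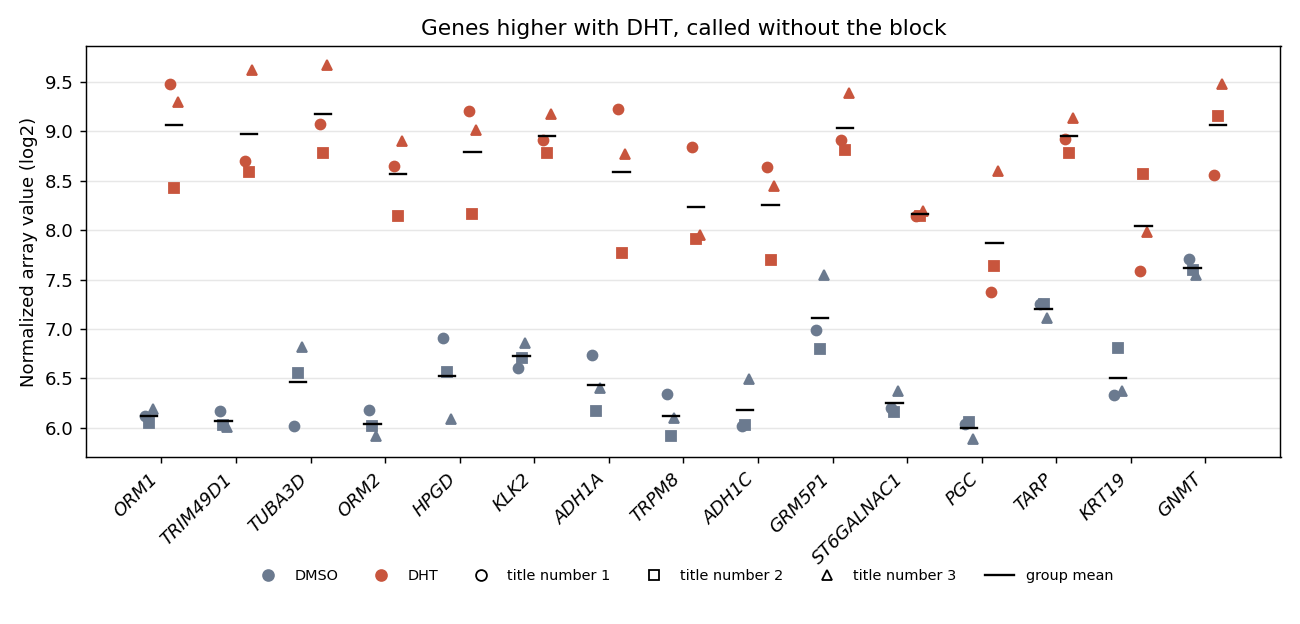
Normalized array value (log2) of 15 genes called higher with DHT without the block, 1 symbol per array, shaped by title number, with bars at the group means. In all 15 genes the 3 DHT arrays lie above the 3 DMSO arrays, and the DMSO arrays of most lie near the lower end of the array's range.

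Kallikreins are a family of serine proteases, of which some are secreted into seminal fluid. Of 10 kallikrein genes tested, the pseudogene KLKP1 counted among them, 2 were called higher without the block and 4 with it, and none lower. The 6 that were not called differed by log2 -0.48 to 0.60. Over all genes tested, 39 and 270 of 14433 were called higher without and with the block. KLK2 and its neighbour KLKP1, a kallikrein pseudogene, were called without the block, at log2 2.23 (SE 0.28, adjusted p = 0.00181 from limma) and 1.81 (SE 0.30, adjusted p = 0.0127 from limma). KLK3, the gene of prostate-specific antigen, read 7.25, 6.58 and 8.45 against 9.67, 10.06 and 9.76, which passed only with the block (log2 2.41, adjusted p = 0.00263 with it and 0.0738 without, from limma). KLK4 rose by log2 1.19 from an already high level and also passed only with the block (adjusted p = 0.0297 from limma). Among tested genes in chromosome order, KLK3, KLK2, KLKP1 and KLK4 follow one another. In all, 12 of 14391 pairs of neighbours were both called higher with the block, and 4 pairs both lower. Among the higher pairs, besides the kallikreins, were ORM1 with ORM2, ADH1A with ADH1C, TRIM49D1 with TRIM49D2, and the zinc-finger genes ZNF239 with ZNF485.

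Further rises belonged to several other gene families. TRIM49D1 and TRIM49D2, near-identical members of the tripartite-motif family of chromosome 11, read at most 6.17 on any DMSO array and at least 7.95 on any DHT array (log2 2.90 and 2.33). TRIM48 and TRIM51, relatives on the same chromosome, read 7.65, 6.83 and 8.12 against 8.74, 8.93 and 9.66, and 9.71, 9.84 and 9.55 against 10.98, 10.75 and 11.71, and were called with the block. Copies of this family are so alike that the signal of one may come from another. Of 26 listed TRIM genes tested, which hold neither TRIM49D nor TRIM51, TRIM48 alone was called in either fit, and the median was log2 -0.06. ADH1A and ADH1C, class I alcohol dehydrogenases that oxidize ethanol and retinol, rose by log2 2.16 and 2.08, with the same doubt about copies. TUBA3D, an alpha-tubulin, rose by log2 2.71 in a probe whose partner (log2 0.90) was not called. MYBPC1, a myosin-binding protein of slow muscle, rose by log2 2.02 in a probe called without the block and 2.14 in a probe called with it, while its remaining probe differed by 0.06. GRM5P1, a pseudogene of a glutamate receptor, rose by log2 1.93, TARP, a transcript of the T-cell receptor gamma locus that prostate cells make, by 1.74, and KRT19, an epithelial keratin, by 1.54. The TARP call without the block was lost whichever array was left out, and that of KRT19 was kept only without DHT array 1. HOPX, a homeodomain protein without DNA binding, rose by log2 1.32 in 1 of 2 probes.

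With the block, further secreted and membrane proteins were called. F5, coagulation factor V, read 6.74, 6.24 and 6.96 against 9.35, 7.99 and 9.47 (log2 2.29, adjusted p = 0.00367 from limma). TM4SF1, a tetraspanin-like surface protein, read 8.50, 8.38 and 10.10 against 10.11, 9.83 and 12.03 (log2 1.66, adjusted p = 0.00178 from limma). Its groups overlapped, with array 3 high in both, while the differences at the 3 numbers lay close together. VGF, a secreted neuropeptide precursor, and GPR19, an orphan receptor, rose by log2 1.44 and 1.43, and their array 3 was also the highest in both groups, which did not overlap. TMPRSS2, the membrane protease often fused to ERG in prostate cancer, rose by log2 1.17 (adjusted p = 0.00349 with the block, 0.225 without, from limma), and the chaperone gene FKBP5 by 0.91 (adjusted p = 0.0301 and 0.168 from limma). The FKBP5 call was lost whichever of the 6 arrays was left out. C19orf48P, a pseudogene, rose in 3 of 3 probes by log2 0.86 to 1.48.

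Of 44 androgen-induced genes tested, 12 were called higher without the block and 22 with it, and none lower, with a median of log2 0.83. Over all genes tested the median was -0.01, and 39 and 270 of 14433 were called higher. Without 1 array the 12 became 3 (DMSO array 1), 4 (DMSO array 2 or DHT array 3), 7 (DHT array 1 or 2) or 8 (DMSO array 3), and the 22 became 13 to 18, the fewest without DHT array 2. This list was written with these results known. Its best expressed members that were not called, STEAP1 and DBI, differed by log2 0.06 and -0.09.

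Genes of the division cycle made up the largest set of rises, and nearly all of them were called only with the block. Of 23 genes that license replication origins, which load and fire the MCM helicase, 1 was called higher without the block and 15 with it, with a median of log2 0.83. Over all 14433 genes tested, 39 were called higher without the block and 270 with it. CDC6, the helicase loader called in both fits, read 6.45, 6.58 and 6.77 against 7.94, 7.79 and 8.21. Its call without the block was lost when DMSO array 1 or 2 or DHT array 1 or 3 was left out. MCM10, which helps to fire the helicase, rose by log2 1.75 and 1.32 in its 2 probes, and MCM7, a subunit of it, by 1.52 in its dimmer probe and 0.76 in its brighter one. MCM2 (log2 1.14), MCM3 (1.01 and 0.81), MCM6 (0.83), CDC45 (1.25) and GINS2 (1.23), further helicase parts, were also called with the block. GMNN, which restrains licensing, differed by log2 0.58 and was not called.

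Of 29 genes of the replication fork, 1 was called higher without the block and 13 with it (39 and 270 of all 14433 tested). Their median was log2 0.73. FEN1, the nuclease that trims Okazaki fragments, read 9.86, 9.63 and 10.03 against 11.36, 11.67 and 11.07 in the probe called in both fits (log2 1.53, SE 0.26, adjusted p = 0.0172 from limma). Among the fits that left out an array, its call without the block was kept only without DMSO array 3. RFC3, a part of the clamp loader, rose in 3 of 3 probes (log2 1.06 to 1.41), and the primase and polymerase subunits PRIM1, POLE2 and POLA2 by 1.32, 1.29 and 1.10. PCNA, the sliding clamp, rose by log2 1.01 in 1 of its 3 probes, while its brightest read 12.35, 11.92 and 13.34 against 13.44, 13.03 and 13.32 and was not called.

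Of 21 DNA repair genes 9 were called higher with the block and 1 without it (270 and 39 of all 14433 tested). The 9 became 3 without DMSO array 1 or DHT array 2, 4 without DHT array 1, and 5 without each of the others. EXO1, a mismatch repair exonuclease, rose by log2 1.40 in the probe called in both fits, and read 8.96, 9.02 and 8.95 against 10.52, 10.34 and 10.44 in its brighter probe, which passed with the block. Its call without the block was lost when DMSO array 1 or 2 or DHT array 2 or 3 was left out. NEIL3, a DNA glycosylase, read 8.11, 7.20 and 8.80 against 9.92, 9.34 and 10.04 (log2 1.73, adjusted p = 0.000293 with the block and 0.222 without, from limma). FANCB, of the Fanconi core complex, rose in both probes (log2 1.45 and 1.32), and DDIAS, an anti-apoptotic factor induced by DNA damage, by 1.63. Among 24 genes of chromatin in S phase, 2 were called without the block, CDCA7 (log2 1.35), which helps in DNA methylation, and WDR76 (log2 1.32), and 7 with it. Both calls without the block were lost whichever array was left out, and the 7 became 3 without DHT array 2, 4 without DMSO array 1 or DHT array 1 and 5 without DMSO array 3. ASF1B, a histone chaperone, read 9.20, 7.87 and 9.19 against 10.72, 10.69 and 10.70 (log2 1.95, SE 0.41, adjusted p = 0.0013 with the block and 0.0649 without, from limma). Its DHT arrays lay close together and its DMSO arrays far apart. UHRF1 (log2 1.37), which guides DNA methylation, and EZH2 (0.93 in 1 of 2 called probes), the H3K27 methyltransferase, were called with the block.

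The replication-dependent histones, whose messages rise in S phase but mostly lack poly(A) tails, did not follow. Of 18 tested, none was called in either fit and the median was log2 -0.16. In 1 gene all DHT arrays lay above the DMSO arrays (1216 of 14433 genes do so). SLBP, which binds the ends of these messages, rose by log2 0.82 with the block in 1 of 2 probes. How the arrays' labelling treats messages without a tail was not tested.

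Nucleotide synthesis and G1/S genes were called in part. Among all 14433 genes tested, 270 were called higher with the block and 39 without it. Of 24 genes of deoxynucleotide synthesis 4 were called with the block, led by RRM2 (log2 1.58), the limiting subunit of ribonucleotide reductase, and TYMS (1.06), thymidylate synthase. All 24 differences were above 0, and their median was log2 0.35, while 1 call (without DHT array 2) or 2 (without any other) were left when an array was left out. Of 27 genes of G1/S control 1 was called without the block and 7 with it. CDK2, the S-phase kinase called in both, read 10.99, 10.62 and 11.17 against 11.97, 12.06 and 12.07. Among the fits that left out an array, its call without the block was kept only without DMSO array 3. E2F7, a repressor of the family, read 8.49, 7.61 and 8.37 against 9.93, 9.14 and 9.89 (2.82-fold). It and E2F2 (log2 1.48), an activator, were called with the block, while E2F1, the best known activator, differed by 0.25 and was not called. CCNA2, cyclin A2, rose by log2 1.31, CDC25A, the phosphatase that activates CDK2, by 1.32, and SKP2, which marks p27 for destruction, by 0.93. CCND1, cyclin D1, lay at log2 0.07. CDKN1C, a CDK inhibitor, read 8.04, 7.63 and 8.14 against 7.24, 7.23 and 7.13, groups that do not overlap, without passing either test (log2 -0.74, adjusted p = 0.456 with the block, from limma). CDKN1A, the inhibitor p21, differed by log2 -0.35 and its groups overlapped.

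All 44 mitotic genes tested were higher in the mean with DHT, with a median of log2 0.92. None was called without the block, 25 were with it, and in 24 the DHT arrays all lay above the DMSO arrays. Over all 14433 genes tested, 39 were called higher without the block and 270 with it, and 1216 had DHT arrays all above the DMSO arrays. AURKB, the kinase of chromosome segregation, read 8.72, 7.58 and 9.47 against 9.68, 9.95 and 10.24 (log2 1.37, adjusted p = 0.0167 with the block and 0.468 without, from limma). CDK1, the mitotic kinase, rose by log2 1.37 and 1.02 in its 2 probes. CENPA, the centromeric histone (log2 1.29 in the called probe), SPC25, of the kinetochore (1.23), CDC25C, which activates CDK1 (1.22), and TTK, a checkpoint kinase (1.13), followed. KIF23 and HMMR rose by log2 1.05 and 1.01. SGO1, which guards sister chromatids and was in no list, rose in both probes (log2 1.47 and 1.21). Cyclin B1, CCNB1, differed by log2 0.16, PTTG1, securin, by 0.39 and CDC20, an activator of the anaphase-promoting complex, by 0.69, none of them called. These are summed values of whole cultures, in which more dividing cells and more RNA per cell cannot be told apart. The count of 25 changed with single arrays: it was 1 without DHT array 2, 6 without DMSO array 1, 11 without DMSO array 3, 14 without DMSO array 2 and 16 without DHT array 1. The licensing count of 15 was 3 and 5 without the first 2 of these, and 8, 8, 9 and 11 without DHT array 3, DMSO array 3, DMSO array 2 and DHT array 1. The fork count of 13 fell to between 5 and 8. The medians of these 3 lists stayed above 0 whichever array was left out.

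**Figure D2:**
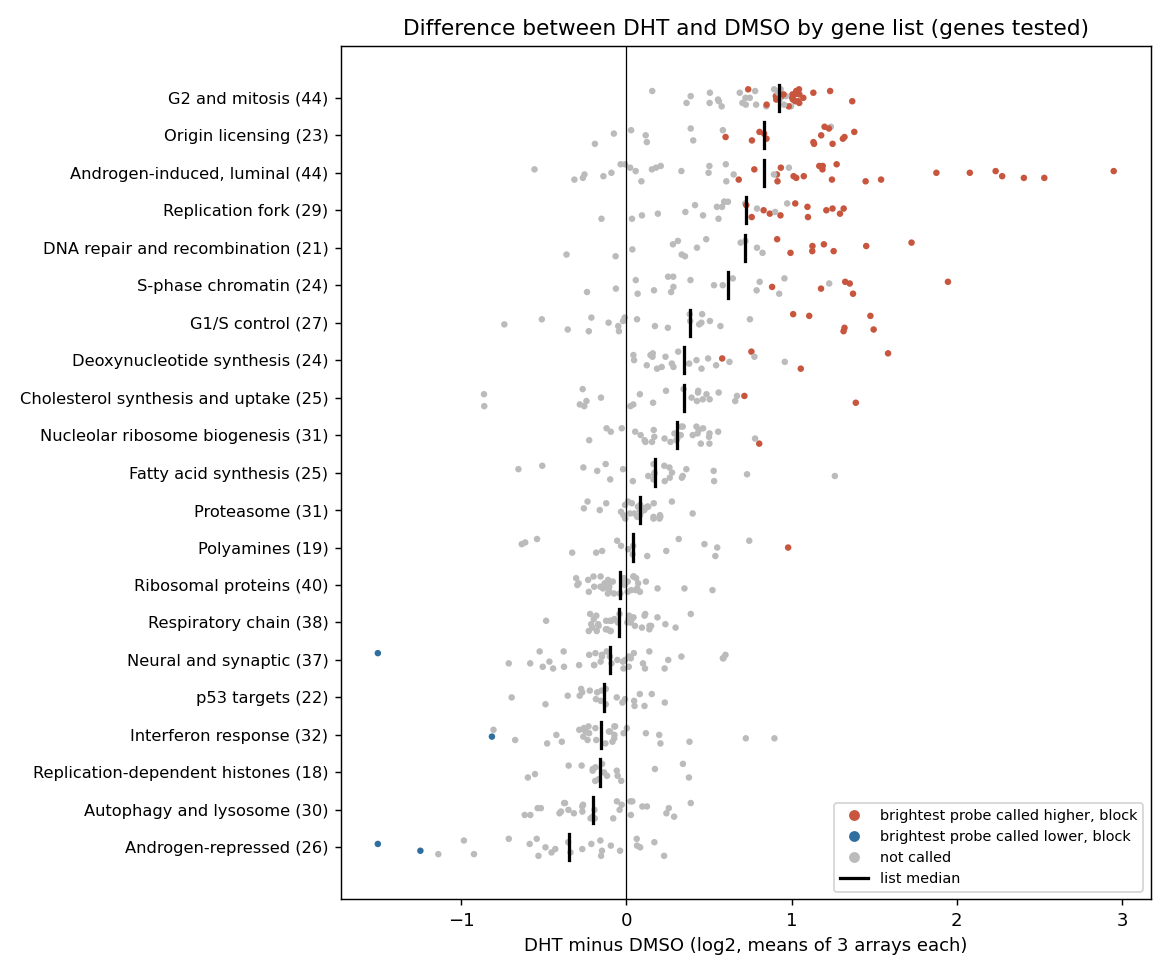
Difference between DHT and DMSO (log2, means of 3 arrays each) of each gene in 21 lists, with the number of genes tested in brackets, 1 point per gene (its brightest probe; red called higher and blue called lower with the block) and a bar at the list median. Mitotic, replication and androgen-induced genes stand to the right, with medians up to log2 0.92, while histones, ribosomal proteins and the respiratory chain lie about 0.

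The mitotic genes of each group were ordered by title number. Averaged over the 44 genes and set against the DMSO mean, DMSO arrays 1 to 3 stood at log2 0.01, -0.47 and 0.45, and DHT arrays 1 to 3 at 0.81, 0.55 and 1.203. DHT minus DMSO was 0.80, 1.01 and 0.75 at numbers 1, 2 and 3, a narrower range than within either group. In each of the 6 groups of the series, array 2 was the lowest and array 3 the highest, for mitotic, licensing and fork genes alike. The lists share arrays and cell-cycle genes vary together, so this is 1 ordering and not 3. Over all probes, the deviations of same-numbered DMSO and DHT arrays from their group means correlated with r of 0.018, 0.073 and 0.095 at numbers 1, 2 and 3 (across probes, which are not independent replicates). What made the mitotic genes differ by number was not tested. Androgen-induced genes varied less in the mean: DHT minus DMSO over their 44 genes was log2 0.81, 0.85 and 0.86 at the 3 numbers. By the median they varied about as much, at 0.65, 0.80 and 0.81, beside 0.82, 0.97 and 0.79 for mitotic genes.

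**Figure D3:**
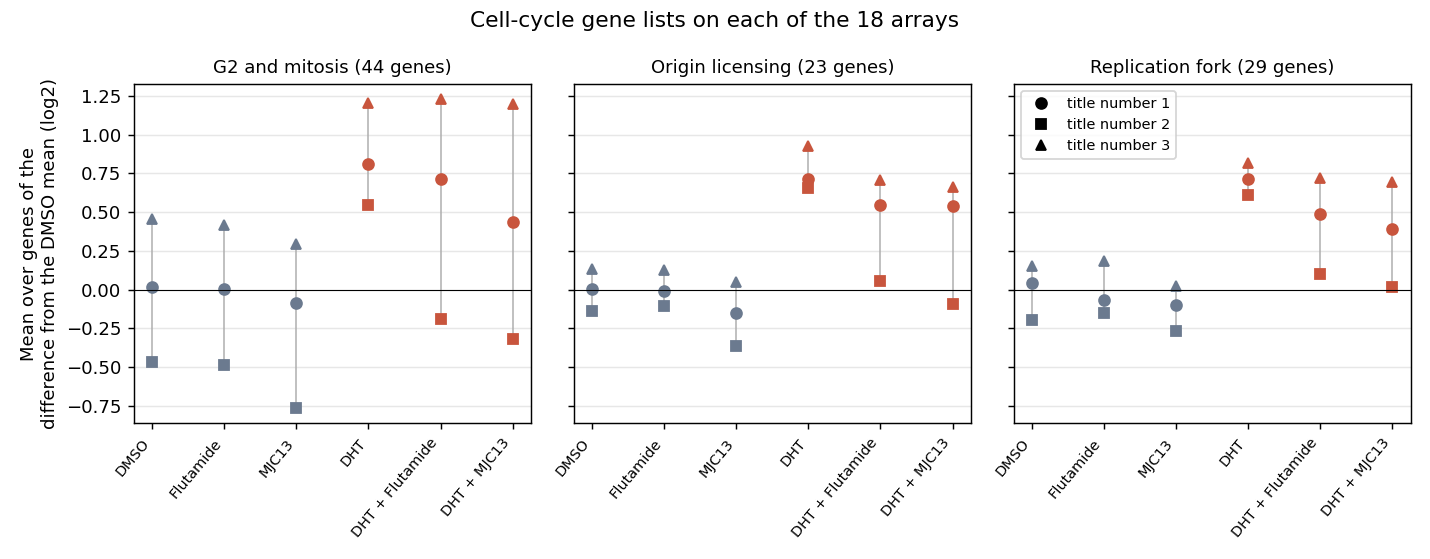
Mean over the genes of 3 lists of the difference from the DMSO mean (log2) on each of the 18 arrays, by group, with the title number as the symbol and a line over each group's range. Array 2 is lowest and array 3 highest in all 6 groups, and for mitotic genes the DMSO arrays run from -0.47 to 0.45 and the DHT arrays from 0.55 to 1.203.

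Of 25 cholesterol genes none was called without the block and 4 with it, with a median of log2 0.35. In 10 the DHT arrays all lay above the DMSO arrays (1216 of 14433 genes do so). Among the 14433 genes, 270 were called higher with the block and 39 without it. The 4 became 3 without DMSO array 3, 1 without DMSO array 1 or DHT array 2, and 0 without any other. EBP, a sterol isomerase, read 10.12, 9.44 and 10.49 against 11.04, 11.83 and 11.35 (log2 1.39, adjusted p = 0.0381 from limma), a call lost whichever array was left out. INSIG1, the sterol sensor (log2 0.97 in the called probe), SQLE, squalene epoxidase (0.77), and DHCR7, the last enzyme of the pathway (0.71), were the others. Of 25 genes of fatty acid synthesis none was called in either fit, with FASN and SCD, the synthase and the desaturase, at log2 0.23 and 0.04. Polyamine genes had a median of log2 0.04, but SMS, spermine synthase, read 12.78, 12.59 and 12.88 against 13.64, 13.54 and 13.74 (log2 0.89, SE 0.17, adjusted p = 0.0326 from limma). SRM, spermidine synthase, rose by 0.98 and AZIN1, an activator of ornithine decarboxylase, by 0.87 in 1 of 3 probes, both with the block. The SMS call without the block was lost whichever array was left out, and the 3 calls with it became 0 or 1 without any but DMSO array 3.

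Amino acid enzymes included GNMT, glycine N-methyltransferase, which uses up S-adenosylmethionine. It read 7.71, 7.59 and 7.54 against 8.55, 9.16 and 9.48 (log2 1.45, SE 0.25, adjusted p = 0.016 from limma). Among the fits that left out an array, its call without the block was kept only without DHT array 1. AADAT, the kynurenine aminotransferase, rose by log2 1.07 without the block and, in its brighter probe with the block, by 1.48. The AADAT call without the block was lost whichever array was left out. HGD, of tyrosine breakdown, rose by log2 1.25 in 1 of 2 probes with the block. AADAT and HGD were the 2 of 30 genes of amino acid breakdown called, and the median of that list was log2 -0.01. Among all 14433 genes tested, 270 were called higher with the block and 39 without it. Of 31 nucleolar genes that make ribosomes, 2 were called with the block, NOLC1 (log2 0.80) and NOP16 (0.73), and 27 differed upward with a median of 0.31. Of the 2 calls 1 was left without DHT array 1 and none without any other. The 40 ribosomal protein genes lay at a median of log2 -0.04 with no call.

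Signalling and channel genes called with the block were few. INPP4B, a phosphatase that dampens PI3K signalling, read 8.03, 7.28 and 7.65 against 9.52, 8.15 and 9.43 (log2 1.38, adjusted p = 0.00614 from limma). FGFR3, a growth factor receptor, rose by log2 1.06 in 1 of 2 probes, KCNMA1, the large-conductance potassium channel, by 1.13 in 1 of 2, and SPRY1, a brake on MAPK, by 0.72 in 1 of 2. The calls of KCNMA1 and SPRY1 were lost whichever array was left out. ALDH1A3, which makes retinoic acid, rose in both probes (log2 0.92 and 0.77). CHRNA5, a nicotinic receptor subunit, rose by log2 1.16 in a probe called without the block, while its brighter probe differed by -0.47. The CHRNA5 call without the block was lost whichever array was left out, while its call with the block was kept in these fits.

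Fewer genes fell, and without the block only MYLK and CPLX2 among named genes. MYLK, the myosin light chain kinase, read 9.26, 8.81 and 9.51 against 7.23, 7.72 and 7.59 (log2 -1.68, SE 0.31, adjusted p = 0.0283 from limma), and its dimmer probe differed by -0.30. CPLX2, complexin of synaptic vesicle release, read 7.56, 7.16 and 7.18 against 6.32, 6.28 and 6.50 (log2 -0.93, adjusted p = 0.0489 from limma), and its brighter probe by 0.14. Either call was lost whichever of the 6 arrays was left out. A probe with no symbol, ILMN_3234615, had the largest fall, at log2 -1.75.

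The falls called with the block began with KCNU1 and OPRK1. KCNU1, a potassium channel known from sperm, read 10.87, 10.86 and 10.03 against 8.99, 9.29 and 8.50 (log2 -1.66, adjusted p = 0.000458 with the block and 0.0549 without, from limma). OPRK1, the kappa opioid receptor, read 12.05, 12.54 and 11.59 against 11.13, 11.24 and 9.29 (log2 -1.50, adjusted p = 0.0148 from limma). In OPRK1 array 3 was low in both groups, and its call was lost without DHT array 2 or 3 or DMSO array 2 or 3. PCDH11X, a protocadherin with a near-identical copy on Y, fell by log2 1.25 and 1.18 in 2 of 3 probes. GRIK1, a kainate receptor subunit, fell in both probes (log2 -1.23 and -0.87), and SNAP91, a clathrin adaptor of synapses, by 1.02. The list of 37 neural genes as a whole stood at a median of log2 -0.10 with OPRK1 and CPLX2 as its 2 calls. At most 1 of them was left whichever array was left out. Among all 14433 genes tested, 84 were called lower with the block and 2 without it.

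Enzymes and matrix proteins formed another part of the falls. AOC1, a diamine oxidase that breaks down histamine and putrescine, read 8.23, 8.48 and 7.69 against 6.54, 6.48 and 6.96 (log2 -1.47, adjusted p = 0.0303 from limma). AKR1C3, which converts androstenedione to testosterone, read 7.97, 8.09 and 7.90 against 6.64, 6.98 and 6.95 (log2 -1.13, adjusted p = 0.0307 from limma). UGT2B17, which glucuronidates androgens for removal, fell by log2 1.21 in 1 of 4 probes, and its brightest probe, near the top of the range, differed by -0.15. These are genes of androgen making and removal. Of 17 tested, 2 were called lower with the block (84 of all 14433 genes were) and none higher, with a median of log2 -0.09. Of the 2 calls 1 was left without DHT array 1 and none without any other. LTBP1, which tethers latent TGF-beta, fell by log2 1.31 in 1 of 2 probes, TLL1, a metalloprotease, by 1.21, MATN2, a matrix protein, by 1.17, TIMP2, an inhibitor of metalloproteases, by 1.02 in 1 of 2, and ANTXR1, a collagen-binding anthrax toxin receptor, by 1.23 in 1 of 4. The calls of AOC1, AKR1C3, GASK1B, GRIK1, LTBP1, TLL1 and UGT2B17 were lost in over 3 of the 6 fits that left out an array, whereas those of KCNU1, ABTB1, LRRC31, RCAN2 and MATN2 were kept in all 6.

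**Figure D4:**
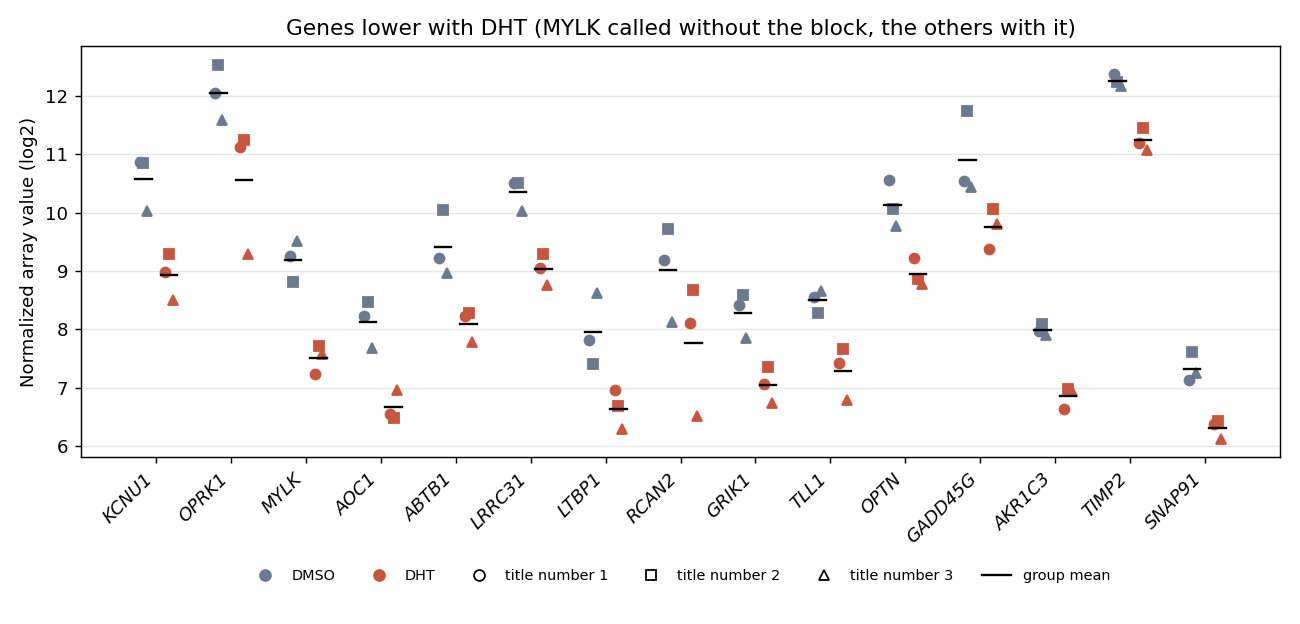
Normalized array value (log2) of 15 genes lower with DHT, 1 symbol per array, shaped by title number, with bars at the group means; MYLK was called without the block and the others with it. RCAN2 shows groups that overlap while each DHT array lies below the DMSO array of its number, and the groups of the other 14 do not overlap.

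The remaining large falls are given gene by gene, and whether they share a process was not tested. Of the 84 genes called lower with the block, 68 were in none of the lists, as were 144 of the 270 called higher. RCAN2, a calcineurin regulator, read 9.20, 9.72 and 8.13 against 8.11, 8.68 and 6.52 (log2 -1.25, adjusted p = 0.0037 with the block and 0.658 without, from limma). ABTB1, a BTB-domain protein, read 9.23, 10.04 and 8.97 against 8.23, 8.28 and 7.79, and LRRC31, a leucine-rich repeat protein, 10.51, 10.51 and 10.03 against 9.05, 9.29 and 8.77. IFI27L2, an interferon-inducible gene, fell by log2 1.41, OPTN, an autophagy receptor, by 1.17, GADD45G, a growth arrest gene, by 1.16, GASK1B, a Golgi-associated protein, by 1.12 and DENND1B, an exchange factor of Rab35, by 1.09. IFI27L2, GASK1B and DENND1B each have another probe that was not called. Smaller falls with tight groups were NCOA7 (log2 -0.68), a nuclear receptor coactivator, SOX4 (-0.75), a transcription factor, and ADM (-0.78), the vasodilator adrenomedullin. NCOA7 read 11.88, 12.02 and 11.87 against 11.21, 11.27 and 11.24. The calls of NCOA7 and SOX4 were lost whichever array was left out. That of ADM was lost without DMSO array 1 or DHT array 2 or 3. SLC7A5 (log2 -0.81), a leucine transporter, and PPP1R15A (-0.67), which reverses the stress arrest of translation, were the 2 calls among 26 ATF4 stress genes. Among all 14433 genes tested, 84 were called lower with the block. Both ATF4 calls were lost whichever array was left out. Of 26 androgen-repressed genes, OPRK1, PCDH11X and UGT2B17 were called lower with the block, none without it, and 11 had DHT arrays all below the DMSO arrays (980 of 14433 genes do so overall), with a median of log2 -0.34. The 3 calls became 0 without DHT array 2, 1 without DHT array 3 or DMSO array 2 or 3, and 2 without DMSO array 1. FOLH1, the gene of prostate-specific membrane antigen, differed by log2 -0.98 without a call.

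Many processes had no call in either fit. They were the respiratory chain (38 genes, median log2 -0.05), the citric acid cycle (25, 0.11), glycolysis (25, 0.11), the proteasome (31, 0.08), splicing factors (34, 0.11), folding in the endoplasmic reticulum (36, 0.02), heat shock (22, 0.13), p53 targets (22, -0.14), autophagy and lysosome (30, -0.20), NF-kB and inflammation (25, -0.05), Notch (18, 0.06) and the circadian clock (21, -0.14). With 3 arrays per group a small shift of such a list was not testable gene by gene, and the absence of calls does not show that its genes stayed the same. Of 32 interferon response genes 1 was called lower with the block (ISG20, an RNA exonuclease, log2 -0.81), as were 84 of all 14433 genes tested. The ISG20 call was kept only without DMSO array 3 among the 6 fits that left out an array. GAPDH and ACTB, used as loading standards, differed by log2 0.02 and -0.03 in their brightest probes. Of 15 housekeeping genes tested none was called, and their median was log2 0.11, with 0.47 the highest. In 5 of them the DHT arrays all lay above the DMSO arrays (1216 of 14433 genes do so).

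Markers of the cell type were checked on the same arrays. Of 13 luminal prostate markers listed, 11 were tested, and KLK2, KLK3, KLK4, TMPRSS2 and SLC45A3 were called higher with the block. These 5 became 3 without DMSO array 1 or 2 or DHT array 1 or 2. Of the other 6, none was called and 4 were lower in the mean. Among these were FOLH1 (log2 -0.98), ACP3 (-0.56), prostatic acid phosphatase, and STEAP2 (-0.26), a metalloreductase, with no overlap of the groups in FOLH1 and STEAP2. Over all 14433 genes tested, 270 were called higher with the block, and 980 had DHT arrays all below the DMSO arrays. Of markers of other cells, 2 of 11 basal, 3 of 10 neuroendocrine, 8 of 15 fibroblast and smooth muscle, 6 of 15 leukocyte and 5 of 10 endothelial genes passed the filter on dim probes, and none was called in either fit.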

How the data were processed

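RNA of LNCaP cells, 18 samples in 6 groups of 3, was read on Illumina BeadChips. Signals left GenomeStudio and were background-subtracted, then quantile-normalized in lumi, by the authors (versions not given in the sources used here). The deposited values are log2. Whether lumi took a plain logarithm or a variance-stabilizing one, which would shrink differences of dim probes, is not stated. A table from before normalization, with arrays named by codes tied to no sample, was not used. The number of arrays limits the precision.

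Of 47223 probes, the 28334 whose mean over all arrays exceeded the 40th percentile of probe means (6.31) were tested. Symbols came from the platform annotation (30111 probes with 1, 8 with several, 17104 with none), and 30072 matched RefSeq. In limma 3.58.1 (R 4.3.3) the 6 group means were estimated with 12 residual degrees of freedom, and with the title number as an additive term with 10. A call needed a Benjamini-Hochberg adjusted p below 0.05. Differences are DHT minus DMSO, and folds their antilogs.

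The deviations of same-numbered DMSO and DHT arrays from their group means correlated below 0.1 across probes at all 3 numbers. The mitotic, licensing and fork genes were nevertheless ordered by number in all 6 groups. What a number stands for is not given, so the numbers were not taken to pair the arrays, and both fits are given. Lists are described by counts (any probe of a gene called) and the median of each gene's brightest probe. The groups compared, lists, motifs and tests were chosen with earlier results of these data known. Genes named are the 20 largest rises and all falls called without the block, the 20 largest rises and falls called only with it, called list members (up to 6) and uncalled ones (up to 2), and a few standard genes. Others, among them CHRNA5, SLBP, SNAP91 and TIMP2, were picked after their values were seen. Alternatives were other filters, the 2 groups alone, trend and robust moderation, a stricter threshold, the description number as block, and each array left out. The fits were tested on simulated data.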

Additional observations from a re-analysis of the deposited data

How the results depend on the processing

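Counts are given as probes higher and lower. Without the title number as block, the 50 and 4 probes became 31 and 2 unfiltered for dim probes, and 32 and 3 with a filter at the 60th percentile. They became 79 and 8 with the DMSO and DHT arrays alone, and 55 and 11 with trend and robust moderation. An adjusted p under 0.01 left 15 and 0, and the description number as a block gave 36 and 3. Leaving out 1 array gave 7 to 36 higher and 0 to 1 lower. With the title number as block the counts were 364 and 105, against 349 and 116 unfiltered and 435 and 169 at the 60th percentile. The 2 groups alone gave 204 and 33, and trend and robust moderation 459 and 170. At 0.01 there were 122 and 18, and without 1 array 94 to 210 and 14 to 62. The causes of these differences were not tested.

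With no filter, with the mean over a gene's probes and without any 1 array, list medians kept their sign for the androgen-induced (log2 0.83, 0.67 with no filter, 0.69 to 0.92 without 1 array), androgen-repressed, licensing (0.83, 0.68 to 0.98), fork and mitotic genes (0.92, 0.64 to 1.12). Of 54 probes called without the block, 6 kept the call under every alternative in which they were tested (the 60th percentile filter drops some dim probes) and none changed sign. They included KLK2, ORM2, TRIM49D2 and both probes of TRPM8. Of the 96 followed with the block, 36 did likewise. In their deviations from the group means, not every DMSO array correlated best with the DHT array of its own number.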
